A study of Mus musculus with 2 samples.

Results

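Chromatin accessibility at 46 interferon-stimulated genes (ISGs) was compared between HSCs of young and aged mice. The 46 genes were a list of names, set out as genes known to be induced by interferons. The rule uses no accessibility value, but the list was drawn up with earlier results of these data known. All 46 matched 1 gene of the GENCODE M21 annotation of the mouse genome build mm10 (GRCm38), on 14 chromosomes, and they were set beside 21728 protein-coding genes of the autosomes and the X chromosome. Their promoters, the windows of 1 kb on either side of the annotated 5′ end (the transcription start site, TSS), and their gene bodies with 10 kb on either side were counted in every cell.

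The study sorted HSCs from the bone marrow of C57BL/6 mice as Sca-1+ c-kit+ CD150+ cells that were Lin-, IL-7-, CD34-, CD48- and Flt3-, and prepared single-cell ATAC-seq (scATAC-seq) libraries, in which a transposase cuts accessible DNA in nuclei and a barcode marks the nucleus of each fragment. The young library came from mice of 10 weeks and the aged library from mice of 20 months; both were wild type, no treatment is given for either, and the study's methods describe female mice, the aged ones kept on in its own animal facilities. There was 1 library per age, and how many mice entered each is not given in the sources used here. Age, mouse and library can therefore not be told apart, no test between ages was possible, and the 95% intervals given below are exact binomial intervals that cover counting error only.

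The kept cells numbered 4887 young and 3405 aged, with a median of 9890 and 11020 unique fragments per cell and 34670105 and 26162562 fragments in peaks, to which all levels were scaled as fragments per 1000000 in-peak fragments (FPM). In-peak fragments made up 69.2% of young and 67.7% of aged fragments, and fragments shorter than the DNA wrapped in a nucleosome 59.8% and 55.0%. Summed promoter levels per gene were 18.5 and 19.1 FPM over 10 HSC markers, and lower over each of the 7 lists for other cell types. The highest of these were 5 endothelial and stromal markers (10.3 and 10.9 FPM), 6 erythroid markers (8.24 and 7.94 FPM) and 6 monocyte and macrophage markers (5.11 and 5.35 FPM). B cell markers were at 3.63 and 3.43 FPM, plasmacytoid dendritic cell markers at 2.47 and 2.62 FPM, T and NK cell markers at 1.245 and 1.102 FPM, and neutrophil markers at 0.856 and 0.943 FPM. The part of such cells in the ISG values was not tested. Doublets were marked in 4.19% and 3.58% of cells and kept, and 26 kept barcodes occurred in both libraries.

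Interferons are cytokines made on contact with viruses and microbes. Type I interferons signal through Ifnar1 and Ifnar2, the kinases Jak1 and Tyk2, and transcription factors that bind the interferon-stimulated response element (ISRE), whereas interferon gamma acts at the gamma-activated site (GAS). The genes they induce sense viral nucleic acid, block steps of viral growth and raise antigen presentation, and stem cells are known to hold part of this programme at a high resting level. Interferon is also known to drive quiescent HSCs into cycle.

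The elements through which interferon acts were visible in the ISG promoters. In the 300 bases from 250 before to 50 after the TSS, the ISRE core (GAAA, any 2 bases, then GAAA, searched on both strands) was present in 25 of 46 ISG promoters (54.4%), against 3.57% of all protein-coding promoters. The GAS letters TTCNNNGAA were present in 13 ISG promoters (28.3%) against 8.10% of all, and the AP-1 letters TGANTCA in 10 (21.7%) against 6.88% of all. The sequences below, from the GRCm38 reference and written 5′ to 3′ on the strand of the gene, are 60 bases around the last ISRE core before the TSS in 11 of these promoters. Zbp1, Oas2, Trim30a and Ifi27 are shown because their accessibility ratios were among the most extreme, and the other 7 because they hold at least 2 ISRE cores in the 250 bases before the TSS. Capitals mark the ISRE cores on either strand, and overlapping cores run together.
Zbp1 (chr2:173218959-173219018, minus strand): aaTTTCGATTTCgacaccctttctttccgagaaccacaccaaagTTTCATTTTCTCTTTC
Gbp3 (chr3:142559966-142560025, plus strand): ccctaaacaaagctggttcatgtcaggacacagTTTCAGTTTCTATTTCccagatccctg
Isg15 (chr4:156200847-156200906, minus strand): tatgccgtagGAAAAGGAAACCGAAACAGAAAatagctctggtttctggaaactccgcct
Oas2 (chr5:120749875-120749934, minus strand): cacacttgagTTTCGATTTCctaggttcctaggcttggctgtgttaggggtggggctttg
Oas1a (chr5:120907522-120907581, minus strand): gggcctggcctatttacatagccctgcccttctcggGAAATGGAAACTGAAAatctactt
Usp18 (chr6:121245813-121245872, plus strand): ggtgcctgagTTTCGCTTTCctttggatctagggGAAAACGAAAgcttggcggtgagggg
Trim30a (chr7:104465194-104465253, minus strand): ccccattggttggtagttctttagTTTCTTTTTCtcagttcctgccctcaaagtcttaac
Bst2 (chr8:71537553-71537612, minus strand): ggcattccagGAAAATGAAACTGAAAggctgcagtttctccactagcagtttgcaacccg
Ifi27 (chr12:103434123-103434182, plus strand): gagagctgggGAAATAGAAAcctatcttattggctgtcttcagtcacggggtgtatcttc
Ifit3 (chr19:34583363-34583422, plus strand): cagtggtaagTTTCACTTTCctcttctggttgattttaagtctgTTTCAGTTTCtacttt
Ifit1 (chr19:34640775-34640834, plus strand): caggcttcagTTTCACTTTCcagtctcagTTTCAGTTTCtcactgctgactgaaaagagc
The Isg15 promoter held 3 cores in a single overlapping run, Zbp1 held 4 in the 250 bases before its TSS, and the paired cores of Ifit1 and Ifit3 lay on the same strand. The last core before the TSS ended between 8 bases (Oas1a) and 130 bases (Bst2) before it.

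ISG promoters were accessible in both libraries. The promoter level ran from 4.30 FPM (Ifi204, a DNA-binding protein of the PYHIN family) to 50.7 FPM (Tap1, a subunit of the peptide transporter for antigen presentation) in young HSCs, with a median of 22.2 FPM, and from 4.70 to 48.7 FPM in aged HSCs, with a median of 22.3 FPM. The median over all protein-coding promoters was 14.6 FPM in young and 15.4 FPM in aged HSCs, and 32 ISGs in young and 34 in aged HSCs lay above it. All 46 ISG promoters held at least 200 fragments over both libraries, against 65.8% of all protein-coding promoters, so no member was lost to the filter of 50 fragments, and all 46 overlapped an accessible peak. Levels of the 2 ages followed each other closely (Pearson r = 0.98 and Spearman rho = 0.99 across the 46 genes on the log2 scale, a description in which both ages share gene, window and base composition). Cut sites were densest 25 bp before the TSS, where the young library gave 4.37 and the aged library 4.38 cuts per gene and 50 bp on the FPM scale. The same point over all protein-coding genes gave 3.83 and 3.54.

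**Figure D1:**
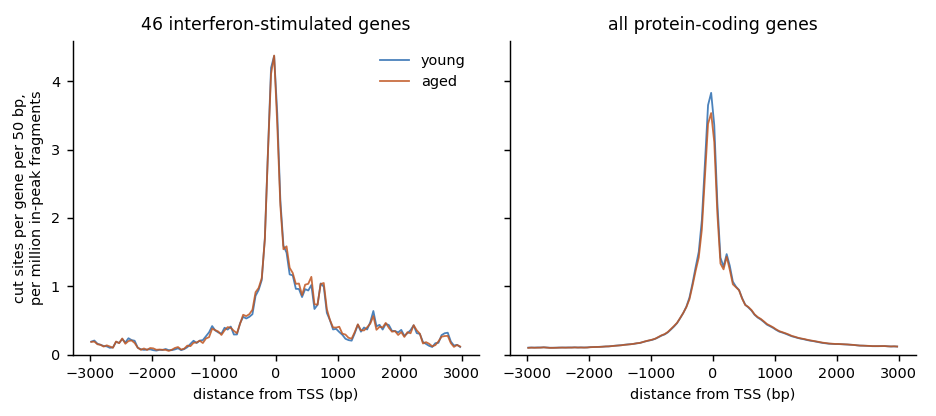
Cut sites around the TSS, per gene and 50 bp on the FPM scale, over 3 kb on either side, for the 46 ISGs (left) and for all protein-coding genes (right), with 1 line per library. The young and aged lines nearly coincide over the ISGs (4.37 and 4.38 at the highest point), and over all genes the young line is higher at the highest point (3.83 against 3.54).

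The list as a whole differed little between ages. The log2 ratio of the promoter level, aged over young with a pseudocount of 1 fragment, had a median of 0.03 over the 46 ISGs, from -0.18 (Psmb8) to 0.59 (Gbp6), and was above 0 for 29 of them. Over the 15955 protein-coding promoters that passed the filter, the median was -0.05 and 35.8% were above 0. A gene was counted as different when its level was at least 25% higher in aged HSCs, or, the same fold in the other direction, at least 20% lower. Of the 46 ISGs, 4 were higher by this rule (Gbp6, Ifi44, Zbp1 and Gbp4), where 9.50% of all tested promoters were, and 0 were lower, where 3.96% of all tested promoters were. Over the 14286 protein-coding promoters with at least 200 fragments, as all ISG promoters held, 7.09% were higher and 1.75% lower. The share of ISGs that were higher was thus near the background. The medians of ISGs and of all promoters differed by 0.08, a difference that another scaling cannot change, while the ISG median itself moved to 0.00 with scaling to all nuclear fragments. The difference was 0.06 in fragments shorter than nucleosomal DNA and 0.04 with windows of 5 kb on either side of the TSS. Summed over the promoters (45 windows after merging, 90.3 kb), ISGs held 9.79 (9.69 to 9.89) fragments for every 10000 fragments in peaks in young HSCs. In aged HSCs they held 10.0 (9.91 to 10.2), a ratio of 1.03 (1.01 to 1.04). Fragments in the windows were counted whether or not they lay in peaks. In the short fragments the summed ratio was 0.998. In the barcodes neither called as cells nor within the limits, ISG promoters held 10.4 and 10.2 fragments for every 10000 in peaks, close to the values in cells.

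**Figure D2:**
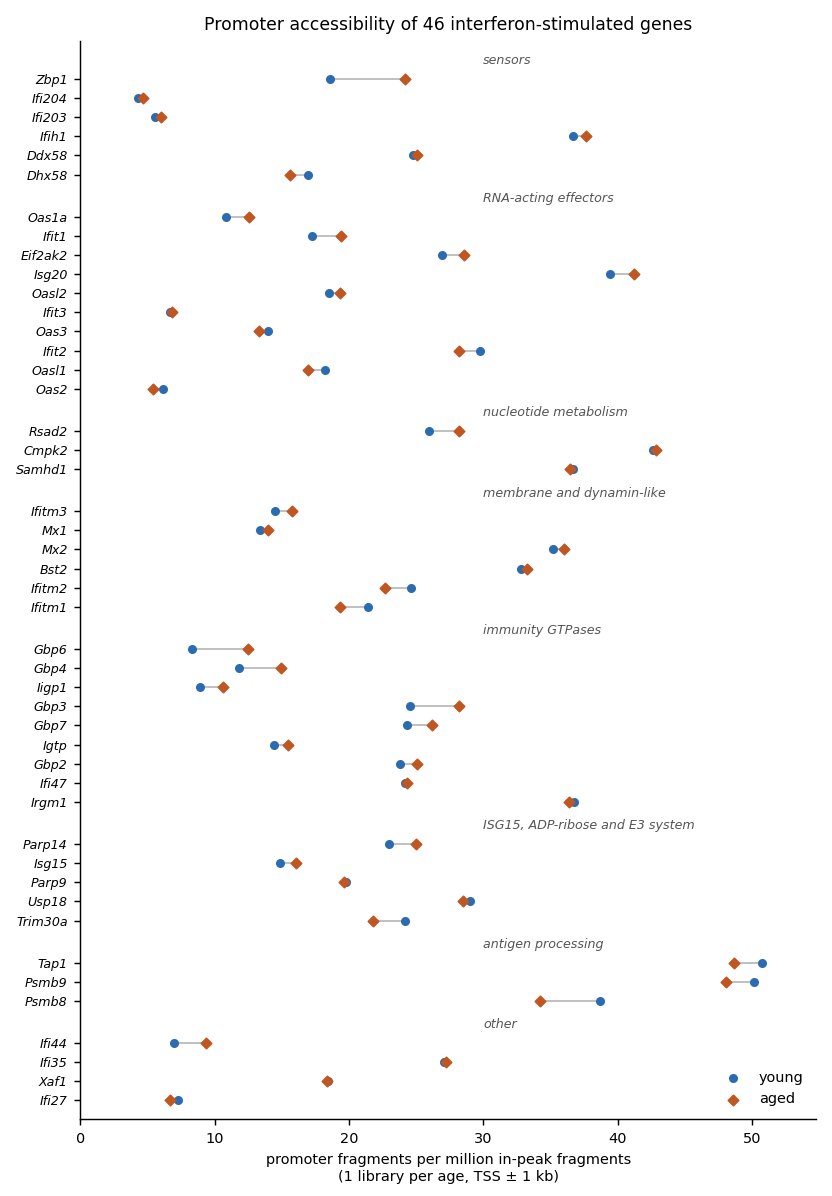
Promoter level of each of the 46 ISGs in FPM (horizontal axis), in young (circles) and aged HSCs (diamonds), 1 library per age, grouped by role and ordered by the ratio. Levels span 4.30 to 50.7 FPM in young HSCs, the circles and diamonds of most genes lie close to each other, and the widest gaps in the direction of aged are at Zbp1, Gbp6 and Gbp3.

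Sensors of viral nucleic acid gave a median log2 ratio of 0.08 over 6 promoters and a summed level of 107 FPM in young and 113 FPM in aged HSCs (ratio 1.06, 1.01 to 1.11). Most of this rise in the sum came from Zbp1, the only sensor whose promoter interval excludes 0. Zbp1, a sensor of Z-form nucleic acid that starts necroptosis (chr2:173206612-173218923, minus strand), was at 18.6 FPM in young and 24.2 FPM in aged HSCs. It was the sensor most different between ages, with a log2 ratio of 0.38 (0.22 to 0.54) at its promoter, whose 4 ISRE cores are partly printed above, and 0.23 (0.12 to 0.35) over its gene body. Its promoter dropped under the 25% rule in short fragments and with a window of 500 bp (lowest value 0.316). A fragment lay in its promoter in 5.24% of young and 6.48% of aged cells when each was thinned to 3000 fragments in peaks. The RNA helicases Ifih1 (MDA5) and Ddx58 (RIG-I) stood at 36.7 and 24.8 FPM in young and at 37.7 and 25.1 FPM in aged HSCs, and their relative Dhx58 (LGP2) at 17.0 and 15.6 FPM. Ifi203 and Ifi204, the PYHIN members, were the least accessible sensors, at 5.54 and 4.30 FPM in young and 6.00 and 4.70 FPM in aged HSCs, with intervals of the ratio that hold 0. Ifi203 shares its promoter window with Mndal, 181 bp away, and reads of these near-identical relatives may be split between copies.

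Immunity GTPases had the highest median and the highest summed ratio of the 8 role groups. The 9 genes, which coat and rupture the membranes around intracellular microbes, had a median log2 ratio of 0.11, and 8 of them were above 0. Their summed promoter level was 177 FPM in young and 194 FPM in aged HSCs, a ratio of 1.09 (1.05 to 1.14). Among the 5 guanylate-binding proteins all ratios were above 0, with a summed level of 92.8 against 107 FPM (ratio 1.15, 1.10 to 1.21), whereas the 4 immunity-related GTPases (Igtp, Irgm1, Iigp1 and Ifi47) summed to 84.3 and 86.7 FPM (ratio 1.03, 0.974 to 1.09). This split by family was made after the values were seen.

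Gbp6 (chr5:105270702-105293698, minus strand) gave the highest ratio of all 46 promoters. It stood at 8.31 FPM in young and 12.5 FPM in aged HSCs, from 288 and 327 fragments, a log2 ratio of 0.59 (0.36 to 0.82), and its gene body gave 0.43 (0.29 to 0.57). Its promoter ratio lay between 0.34 and 0.64 over 14 alternative settings. Gbp4 (chr5:105115767-105139586, minus strand), in the same cluster, was at 11.9 FPM in young and 15.0 FPM in aged HSCs, a log2 ratio of 0.34 (0.13 to 0.54), which dropped under the 25% rule with a window of 500 bp, in fragments shorter than nucleosomal DNA and with scaling to all nuclear fragments (lowest value 0.21). Neither window belongs to a single gene: annotated starts of Gbp8 and Gbp9 lie 46 and 47 bp from that of Gbp4, and that of Gm43302 lies 3 bp from that of Gbp6. Gbp3 was at 24.6 FPM in young and 28.2 FPM in aged HSCs (0.20, 0.05 to 0.34), and Gbp7 and Gbp2 had ratios of 0.11 and 0.08 with intervals that hold 0.

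Iigp1 (chr18:60376027-60392634, plus strand), an immunity-related GTPase that loads onto parasite vacuoles, was at 8.88 FPM in young and 10.6 FPM in aged HSCs, with a log2 ratio of 0.26 (0.02 to 0.50). At the annotated transcript start with the most fragments, which is another start of Iigp1, the ratio was -0.29, and in the other 13 alternatives it was above 0. Igtp was at 14.5 and 15.4 FPM and shares its window with Irgm2, 62 bp away. Ifi47 at 24.2 and 24.3 FPM and Irgm1, the regulator of this family, at 36.8 and 36.4 FPM differed least of the group.

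Effectors that act on RNA gave a median of 0.04 over 10 promoters and a summed ratio of 1.02 (0.985 to 1.06). Within them, the oligoadenylate synthetases, which switch on RNase L, had ratios on both sides of 0, none of which cleared counting error. Oas1a was at 10.9 FPM in young and 12.6 FPM in aged HSCs (0.21, -0.0043 to 0.43), Oas2 at 6.14 and 5.43 FPM (-0.18, -0.50 to 0.13) and Oas3 at 14.0 and 13.3 FPM (-0.07). All 3 intervals hold 0, and the 5 Oas and Oasl promoters summed to a ratio of 0.998 (0.938 to 1.06). Ifit1, Ifit2 and Ifit3, which bind viral RNA lacking host cap marks, had ratios of 0.17, -0.08 and 0.03. The Ifit1 window is shared with Ifit1bl2, 128 bp away. Eif2ak2 (PKR), the kinase that halts translation on double-stranded RNA, was at 26.9 and 28.6 FPM and Isg20, an exonuclease, at 39.4 and 41.2 FPM, ratios of 0.09 and 0.07.

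Enzymes of nucleotide metabolism were among the most accessible ISGs, at 35.1 FPM per gene in young and 35.8 FPM in aged HSCs. Cmpk2, a mitochondrial nucleotide kinase, was at 42.6 and 42.9 FPM and Samhd1, which degrades deoxynucleotides, at 36.7 and 36.5 FPM. Rsad2 (viperin), which makes a chain-ending nucleotide, was at 25.9 and 28.2 FPM, with a log2 ratio of 0.12 (-0.02 to 0.26).

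Membrane and dynamin-like effectors had a summed ratio of 0.994 (0.952 to 1.04) over 6 promoters. The viral entry inhibitors Ifitm1 and Ifitm2 were at 21.4 and 24.6 FPM in young and 19.3 and 22.7 FPM in aged HSCs, and Ifitm3 at 14.5 and 15.8 FPM. Ifitm1 gave -0.15 (-0.31 to 0.02), the fourth lowest ratio of the list, which turned to 0.22 with a window of 500 bp. Ifitm3 gave 0.12 (-0.07 to 0.31). The dynamin-like genes Mx1 and Mx2, and Bst2, which tethers budding virus, had ratios of 0.06, 0.03 and 0.02. Mx2 is annotated as a polymorphic pseudogene in this reference.

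The ISG15, ADP-ribose and E3 system summed to a ratio of 1.002 (0.955 to 1.05) over 5 promoters. Isg15, the ubiquitin-like modifier, was at 14.9 FPM in young and 16.1 FPM in aged HSCs and Parp14, an ADP-ribosyl transferase, held 797 and 654 fragments (0.12), while Usp18, which removes ISG15 and dampens the interferon receptor, was at 29.0 and 28.5 FPM and Parp9 at 19.8 and 19.7 FPM. Trim30a, an E3 ligase, was at 24.2 and 21.8 FPM, a ratio of -0.15 (-0.31 to 0.01) and the third lowest of the list.

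Antigen processing was the only role group whose genes all had ratios below 0 at both promoter and gene body. Over all protein-coding genes that passed the filter, 35.8% of promoters and 43.5% of gene bodies had ratios above 0. The gene body windows of the group share 20212 bp (Psmb9 and Tap1), 19505 bp (Tap1 and Psmb8) and 10044 bp (Psmb9 and Psmb8), so they are not separate measurements. Psmb8, a catalytic subunit of the immunoproteasome (chr17:34197721-34201454, plus strand), was at 38.7 FPM in young and 34.3 FPM in aged HSCs. Its log2 ratio of -0.18 (-0.30 to -0.05) was the lowest of all 46 promoters, the only one with an interval wholly below 0, and it lay between -0.24 and -0.11 over 14 alternatives. Psmb9 and Tap1 face away from each other with starts 211 bp apart and share 1790 bp of their windows, so their values (50.2 and 50.7 FPM in young, 48.1 and 48.7 FPM in aged HSCs, both ratios -0.06) are largely a single measurement. Summed without double counting, the group had 89.5 FPM in young and 83.1 FPM in aged HSCs, a ratio of 0.929 (0.879 to 0.981).

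Of the remaining genes, Ifi44 (chr3:151730922-151749960, minus strand), a GTP-binding microtubule-associated protein, was at 6.98 FPM in young and 9.33 FPM in aged HSCs. Its ratio of 0.42 (0.16 to 0.68) was the second highest of the list, from 242 and 244 fragments, and stayed at least 25% higher in all 14 alternatives (0.33 to 0.47). Neither Ifi44 nor Gbp6 holds an ISRE core within 1 kb of the TSS. Ifi27 was at 7.30 and 6.65 FPM (-0.13, -0.42 to 0.15), Ifi35 at 27.1 and 27.3 FPM (0.01) and Xaf1 at 18.4 FPM in both (0.00).

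Of the 46 promoter intervals, which cover counting error only, 39 held 0, 6 lay above it (Gbp6, Ifi44, Zbp1, Gbp4, Iigp1 and Gbp3) and 1 below (Psmb8). Over all tested promoters 12.2% of intervals lay above 0 and 23.2% below. Over ISG gene bodies, which hold more fragments, 24 intervals held 0, 15 lay above it and 7 below, where 20.1% of all genes lay above and 27.7% below. A difference between 2 mice of the same age may be as large as any of these and was not measured.

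**Figure D3:**
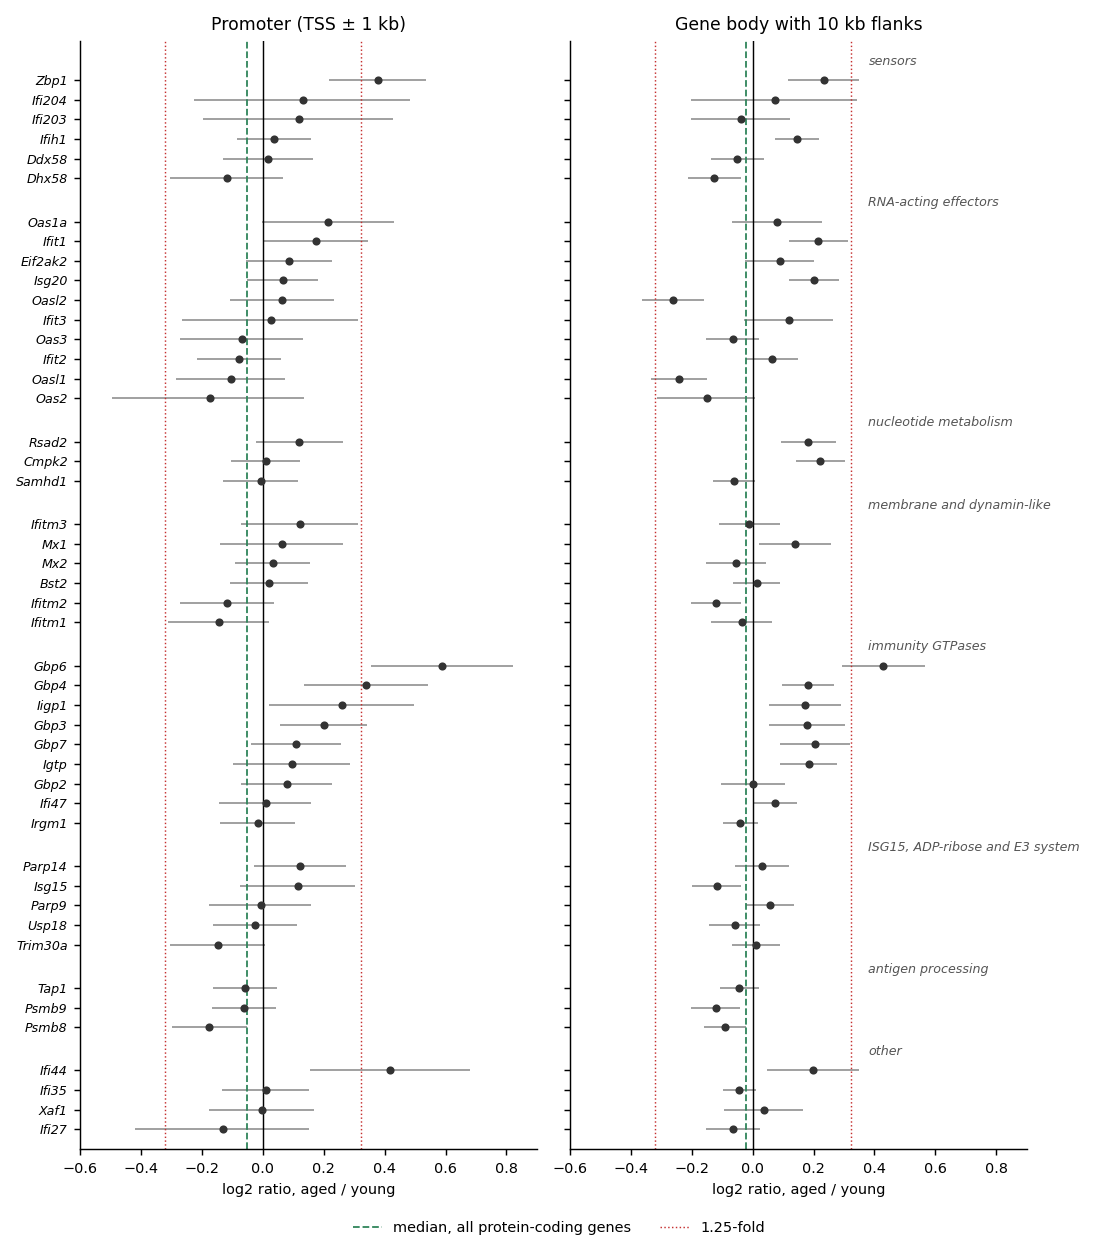
Log2 ratio, aged over young, of each of the 46 ISGs at the promoter (left) and over the gene body with 10 kb flanks (right), with 95% counting intervals as bars, 1 library per age. Dashed lines mark the median of all protein-coding genes and dotted lines a level 25% higher or 20% lower. Gbp6, Ifi44, Zbp1 and Gbp4 lie past the right dotted line at promoters and Gbp6 alone over gene bodies.

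Over gene bodies with 10 kb on either side, the median log2 ratio was 0.02 over ISGs and -0.02 over all protein-coding genes. Gbp6 was the 1 ISG at least 25% higher, where 10.7% of all genes were, and 0 were at least 20% lower, where 1.55% of all genes were. The 46 loci together accounted for 28.6 and 29.1 per 10000 fragments in peaks, a ratio of 1.02 (1.01 to 1.03), and 0.990 in fragments shorter than nucleosomal DNA. Promoter and gene body had the same sign in 35 of 46 genes, 22 higher and 13 lower in aged HSCs (Spearman rho of the ratios 0.68, over windows that contain each other). The lowest gene bodies were those of Oasl2 and Oasl1, neighbours whose windows share 8995 bp. Oasl2 was at 57.9 FPM in young and 48.3 FPM in aged HSCs (-0.26, -0.36 to -0.16) and Oasl1 at 71.3 and 60.3 FPM (-0.24, -0.33 to -0.15), although the Oasl2 promoter itself had a ratio of 0.06. Oas2 followed at 22.5 and 20.2 FPM (-0.15, -0.31 to 0.01). Besides Gbp6, the highest were Zbp1 (0.23) and Cmpk2, at 78.0 FPM in young and 91.0 FPM in aged HSCs (0.22, 0.14 to 0.30), whose promoter ratio was 0.01. With promoters taken out of the windows, Oasl1 and Oasl2 were at least 20% lower and Cmpk2, Gbp6, Gbp7 and Isg20 at least 25% higher, where 3.11% of all genes were lower and 11.9% higher by the same rule. The Isg20 window takes in peaks of the neighbouring gene Aen, and with flanks of 2 kb its ratio was -0.03.

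Peaks called on the cut sites of the kept cells numbered 293 in the 46 loci, from 2 to 14 per gene, and 260 of them held at least 50 fragments. Their median log2 ratio was 0.02, against 0.01 over 128583 such peaks genome-wide; 61 (23.5%) were at least 25% higher in aged HSCs, where 24.3% of all peaks were, and 25 (9.62%) at least 20% lower, where 15.3% of all peaks were. Among the peaks with at least 200 fragments, the highest ratio was in the 3′ untranslated region of Cmpk2 (chr12:26477896-26478563), with 144 young and 293 aged fragments, 4.15 and 11.2 FPM, a log2 ratio of 1.43 (1.14 to 1.73). It held no ISRE and 1 AP-1 match. The next were a peak beside the Tap2 start in an untranslated region (chr17:34203484-34203806, 0.64) and an Ifih1 intron (chr2:62618822-62619453, 5.86 and 8.91 FPM, 0.60). Then came a peak between genes in the Bst2 locus, 720 bp from the start of Ccdc194 (chr8:71526292-71526571, 0.60). The fifth was a peak between genes beyond the 3′ end of Rsad2, 15378 bp from its nearest annotated transcript start (chr12:26439170-26439758, 4.56 and 6.61 FPM, 0.54, 0.22 to 0.86). It was the only one of the 5 with ISRE cores.

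Lower in aged HSCs were an intron of Olfr56 in the Ifi47 locus (chr11:49101417-49101886, -0.75) and a peak 3789 bp from the Samhd1 start (chr2:157138953-157139156, -0.65). The next lay 3334 bp from the nearest annotated transcript start of Ifitm1 (chr7:140971234-140971515, -0.51). The others were a Tap2 intron beside Psmb8 (chr17:34210510-34211161, 15.5 and 10.9 FPM, -0.50) and a peak 1031 bp from the Oasl1 start (chr5:114921771-114922648, 732 and 413 fragments, -0.42, -0.60 to -0.24). The last of these is the most accessible of the 10 peaks, at 21.1 FPM in young and 15.8 FPM in aged HSCs. Motif-bearing stretches of these peaks follow, from GRCm38 and 5′ to 3′ on the plus strand, with the AP-1 match, or the ISRE cores for Rsad2, in capitals. They are shown to set the letters of peaks that differed in opposite directions side by side, and the Cmpk2 stretch is cut to 30 bases because it lies in an exon.
Cmpk2, higher in aged (chr12:26478297-26478326, plus strand): gctgcggctgcTGATTCAtttctgcctggc
Ifih1 intron, higher in aged (chr2:62619250-62619329, plus strand): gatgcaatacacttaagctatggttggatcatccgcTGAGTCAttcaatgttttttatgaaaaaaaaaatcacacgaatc
Rsad2 distal, higher in aged (chr12:26439452-26439531, plus strand): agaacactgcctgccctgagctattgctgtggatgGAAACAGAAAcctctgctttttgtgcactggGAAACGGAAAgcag
Tap2 intron, lower in aged (chr17:34210875-34210954, plus strand): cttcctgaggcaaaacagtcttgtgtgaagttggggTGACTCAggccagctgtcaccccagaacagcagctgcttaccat
Oasl1 upstream, lower in aged (chr5:114921980-114922059, plus strand): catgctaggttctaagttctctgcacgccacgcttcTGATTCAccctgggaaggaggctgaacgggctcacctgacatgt
AP-1 matches thus stood in peaks of both directions. Over distal peaks of the ISG loci with an AP-1 match, 11 of 22 were at least 25% higher and 4 at least 20% lower, with a median of 0.12. Over all distal peaks with a match 34.4% were higher and 11.8% lower, with a median of 0.13.

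The 65 ISG peaks with an ISRE core had a median ratio of 0.03, against 0.02 over the 195 ISG peaks without one and 0.08 over all 10479 peaks with a core. Position divided them: 41 of the 65 lay within 1 kb of a TSS, against 1868 of the 10479. Near a TSS the median was 0.04 in ISG loci and -0.02 over all peaks with a core, and in distal peaks 0.01 and 0.11. These differences were not tested. Peaks with 2 or more cores had a median of 0.11 over 25 ISG peaks and 0.10 over 1179 peaks genome-wide, and 19 of the 25 were above 0, where 63.7% of the 1179 were. The 40 ISG peaks with 1 core had a median of 0.00 and 20 above 0, against a median of 0.07 and 58.5% above 0 over all 9300 such peaks. At promoters the median was 0.08 over ISGs with a core in the 300 bases and 0.01 over those without, against -0.02 and -0.05 over all promoters. The ratios of both sets overlap (Oas2 at -0.18 with a core, Gbp6 at 0.59 without), and of the 4 ISGs that were at least 25% higher only Zbp1 holds a core in the 300 bases. Peaks with a core were wider in ISG loci (median 589 against 310 bp without), so width and motif cannot be told apart here.

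**Figure D4:**
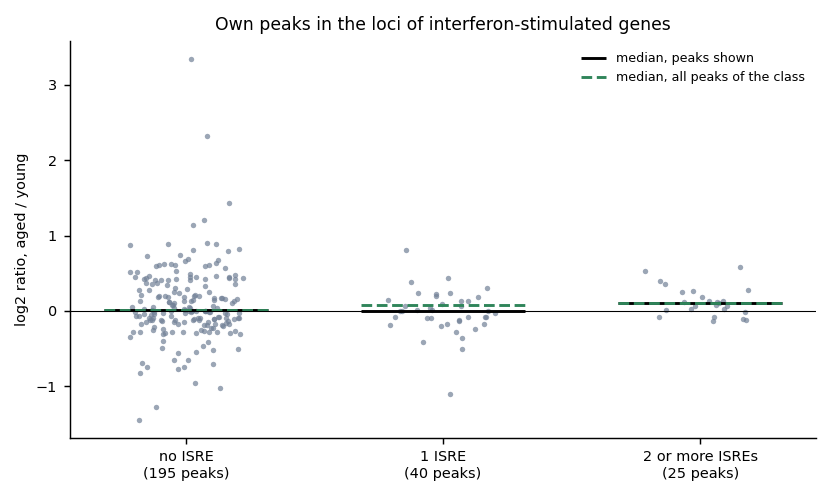
Log2 ratio, aged over young, of the 260 own peaks with at least 50 fragments in the 46 loci (grey points), by the number of ISRE cores they hold. Solid lines give the median of the peaks shown and dashed lines that of all peaks of the class; medians are 0.02, 0.00 and 0.11 in the ISG loci, and the widest spread is among peaks without a core.

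ISG promoters were also poorer in CpG than most. The ratio of observed to expected CpG had a median of 0.267 over ISGs and 0.530 over all protein-coding promoters, and the GC content 50.8% and 55.0%. In the class under 0.5, 37 ISGs had a median log2 ratio of 0.06 and all promoters 0.00, and in the class of 0.5 or more 9 ISGs had -0.01 and all promoters -0.06. The 4 ISGs that were at least 25% higher were all in the CpG-poor class, in which 16.9% of all promoters were.

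Genes that carry the interferon signal had a median ratio near that of all promoters. Of 28 genes of the pathway that are not ISGs of the list, 27 passed the filter. The ratio was above 0 for 4 of these and below 0 for 23, where 35.8% of all promoters were above 0. The median was -0.07, next to -0.05 over all promoters, and -0.013 with scaling by the median of ratios. The receptor promoters had a median of -0.13 (Ifngr2 at 27.7 FPM in young and 23.7 FPM in aged HSCs, -0.23) and a summed ratio of 0.926 (0.890 to 0.963). Among the kinases, Tyk2 was at 43.5 and 36.4 FPM (-0.26, -0.38 to -0.14), and Jak1 and Jak2 gave -0.08 and -0.07. The factors had a median of -0.08, with Irf9 at 36.4 and 33.0 FPM (-0.14) and Irf7 at 21.7 and 19.5 FPM (-0.15), and Irf5 the highest (0.19). The adaptors and kinases downstream of sensors had a median of -0.07, from Mavs and Cgas (both near -0.12) to Tbk1 (0.01). The inhibitors were the group above 0 at promoters, with a median of 0.18 over the 3 that passed the filter and a summed ratio of 1.11 (1.07 to 1.16). This median is the ratio of Ptpn6, and the rise in the sum came from Socs3. Over gene bodies the median of the inhibitors was 0.03. Of the 27 signalling genes, 1 was at least 25% higher, where 9.50% of all tested promoters were. At least 20% lower were 0, where 3.96% of all tested promoters were. All 27 held at least 200 fragments, and over all promoters of that depth 7.09% were higher and 1.75% lower. The gene past the fold was Socs3, a feedback inhibitor of cytokine signalling, at 44.3 FPM in young and 60.2 FPM in aged HSCs (0.44, 0.34 to 0.54). Socs1 was at 82.5 and 80.8 FPM (-0.03). Ptpn6, a phosphatase that dampens cytokine receptor signalling, held 368 and 314 fragments (0.18, -0.04 to 0.40). Its gene body went the other way (-0.16, -0.21 to -0.11). Pias1 had 12 and 4 fragments at its annotated 5′ end and was not assessed.

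In single cells the ISG promoters gave few fragments. After each cell was thinned to 3000 in-peak fragments (4789 young and 3271 aged cells), a cell held on average 2.74 ± 1.70 (SD over cells) fragments in the 46 promoters if young and 2.84 ± 1.68 if aged, with a median of 3 for both ages. Cells with none made up 6.41% and 5.53%. Aged cells above the young median made up 30.5% (29.0 to 32.2), against 29.0% of young cells, and aged cells above the young 95th percentile 2.48%, against 2.72% of young cells. The order of this last pair turned when cells were thinned to 6000 fragments (3.43% of aged and 2.79% of young cells), without doublets (2.54% and 2.42%) and with each promoter counted at most once (5.04% and 4.62%). The variance over the mean was 1.05 in young and 0.997 in aged HSCs, where a Poisson count gives 1 and thinning to few fragments draws the value towards it. Thinned to 6000 fragments it was 1.083 and 1.099, and for scaled scores without thinning 1.766 and 1.601. The thinned scores had a single mode, at 2 fragments, in both libraries. Fragments in the GTPase promoters and in the other ISG promoters of the same cell were nearly unrelated (Pearson r 0.04 in young and -0.02 in aged cells, in sparse counts). Single promoters held a fragment in 1.23% (Ifi204) to 13.3% (Psmb9) of young cells and in 1.28% to 12.1% of aged cells.

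**Figure D5:**
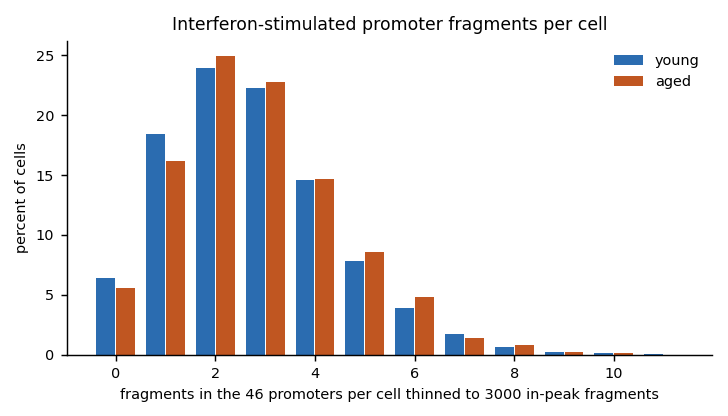
Percent of cells (vertical axis) by the number of fragments in the 46 ISG promoters with every cell thinned to 3000 fragments in peaks, in 4789 young and 3271 aged cells. The distributions overlap almost fully, with 6.41% of young and 5.53% of aged cells at 0 and a single mode at 2 fragments.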

How the data were processed

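Nuclei of sorted HSCs were processed with a droplet scATAC-seq kit. Per the study's methods and processing notes, the authors aligned reads to mm10 with Cell Ranger ATAC, which keeps unique fragments with ends shifted for the transposase, and called cells. The deposited files used here are a list of fragments per library and a table of counts per barcode (read pairs and unique fragments, with no normalization); the authors' peak lists were not used. Barcodes called as cells with 3000 to 20000 in-peak fragments by the authors' count were kept.

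A fragment counted once in a window when at least 1 end lay in it. Windows were 1 kb on either side of the 5′ end of each GENCODE M21 gene, and gene bodies with 10 kb on either side. For peaks, the distance to a TSS ran from the peak centre to the nearest annotated transcript start of any protein-coding gene. Peaks more than 1 kb from such a start are called distal. Own peaks (cut sites in windows of 151 bp, Poisson q under 0.001, local background of 10 kb) were merged over both libraries, and their fragments were the scaling total. Called means at least 25% higher or 20% lower (the same fold) among features with at least 50 fragments over both libraries. Intervals are 95% exact binomial intervals. Motifs were searched as exact letters on both strands. Counting, intervals and fold calls were tested on simulated data. Python 3.11.15, numpy 2.4.6, scipy 1.17.1 and pandas 2.3.3 were used.

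The genes named with full values were the 5 highest and 5 lowest promoters, the 5 promoters with the most fragments (Tap1, Psmb9, Cmpk2, Isg20 and Ifih1), the 3 highest and 3 lowest gene bodies, and the 5 highest and 5 lowest own peaks with at least 200 fragments; other names show their role group. The members, lists and rules were chosen with earlier results of these data known. Scaling, cell limits, doublets, fragment length, windows, filters and pseudocount were varied, as given in the closing section. Sums over genes use merged windows. The libraries hold 53786133 young and 48333115 aged fragments. A single gene of the signalling list is left unnamed.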

Additional observations from a re-analysis of the deposited data

How the results depend on the processing

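Of 150 alternative values of the summary results, 124 lay within the interval of the value reported or within 1.5 times a count. The other 26 did not. Intervals came from counting for sums and shares, and from the ranked ratios of the genes or peaks for medians. Some of the 124 could not differ from the value reported and say nothing about its stability. Every ISG passed the filters, so changing the filter left the ISG values at promoters and gene bodies as they were. The sums already used merged windows, so merging overlapping ISGs repeated them. Changing the pseudocount also left the sums at the value reported. The median ratio over ISG promoters lay between 0.00 and 0.08 (13 of 15 alternatives above 0) and that over gene bodies between -0.01 and 0.08 (11 of 13 above 0); scaling alone moved the median of all promoters from -0.05 to -0.09 and 0.00. The summed promoter ratio was 0.998 in fragments shorter than nucleosomal DNA, 1.001 with scaling to all nuclear fragments, 1.06 with scaling by the median of ratios and 1.01 with windows of 5 kb. The summed gene body ratio was 0.990, 0.993 and 1.06 under the same 3 settings, 1.04 with no flanks and 1.03 without promoters. Promoters at least 25% higher numbered 2 in short fragments and 2 with windows of 500 bp (Gbp6 and Ifi44 in both, where 7.80% and 9.202% of all promoters were), and 1 (Ifit3) was at least 20% lower in short fragments (4.71% of all). Gene bodies past the fold higher numbered 0 in short fragments, 3 with no flanks, 3 with flanks of 2 kb and 4 without promoters (7.17%, 9.21%, 9.02% and 11.9% of all genes), and lower 1 in short fragments (Oasl2) and 2 without promoters (3.43% and 3.11% of all genes). The median over ISG peaks was -0.014 in short fragments and -0.014 with scaling to all nuclear fragments. The median over signalling genes was -0.013 with scaling by the median of ratios. The share of aged cells above the young median was 52.7% without thinning, 47.2% thinned to 6000, 35.8% over gene bodies, 51.3% with each promoter counted at most once and 43.9% in short fragments, beside 49.99%, 45.4%, 36.0%, 48.97% and 44.6% of young cells; the share moves with ties at the median. An ISRE core within the central 200 bp of a peak was an alternative chosen after seeing the data. None of the 4 promoters reported as higher changed sign under the alternatives run, nor did the gene body of Gbp6; the causes of these shifts were not tested. No paired analysis was possible because the ages share only replicate number 1, with 1 library each. The promoter with the fewest fragments, that of Ifi204, had 149 and 123.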

Other observations

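Among peaks with 50 to 200 fragments, under the limit for named peaks, the highest ratios in the ISG loci were 2 intronic peaks of Aen, a p53-induced nuclease gene that lies beside Isg20 within its 10 kb flank. The peak at chr7:78904221-78904966 held 38 young and 146 aged fragments, at levels of 1.10 and 5.58 FPM and a log2 ratio of 2.32 (1.83 to 2.90). The peak at chr7:78903558-78903807 held 5 and 45 fragments, 0.14 and 1.72 FPM, a ratio of 3.35 (2.25 to 5.27). Neither holds an ISRE core, and the first holds 1 GAS match. The lowest of the peaks with at least 50 fragments was one between Oasl2 and Oasl1 (chr5:114916657-114917080), with 143 and 39 fragments, 4.13 and 1.49 FPM, a ratio of -1.44 (-2.02 to -0.95). These peaks were picked after their values were seen.

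Depth did not order the score per cell in a steady way, although the shallowest group was above the deepest in both libraries. In 4 groups of equal cell number from shallow to deep, the mean thinned score was 2.84, 2.71, 2.74 and 2.68 in the young and 2.88, 2.92, 2.75 and 2.79 in the aged library. The standard errors over cells, which are not replicates, were 0.05 to 0.06.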
